A study of Homo sapiens with 20 samples.

Results

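Chromatin accessibility on chromosome 8 was examined in HL60 cells, an established human acute myeloid leukemia (AML) line. Members were taken by position: all 1154 regions that the deposited ATACseq files place on chromosome 8, of 8286 regions in all. The series compared HL60 cells labelled HK3-null, titled KO-2G, with Cas9 expressing control cells, here called Cas9. Per the study's methods the knockout populations were derived from clones grown from lone cells, so KO-2G stands for 1 such line and its differences from Cas9 include whatever else distinguishes that line. Cells of both kinds received 1 µM all-trans retinoic acid (ATRA), which drives HL60 cells towards a neutrophil-like state, or 0.01% DMSO as its solvent control, for 36 h. Each of the 4 groups had 2 ATACseq and 3 RNAseq libraries. The study's methods call them biological replicates without saying what was grown separately, so p-values measure the spread between these libraries.

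ATACseq reports where a transposase can insert adapters into DNA, and its signal is high over promoters and enhancers in use. It is read per library, so more accessible DNA and more copies of the same DNA cannot be told apart from it. The number of copies of chromosome 8 was not measured in these files. Chromosome 8 carries the defensin genes and the death receptor cluster on its short arm (8p), and MYC, a growth-promoting transcription factor with a long enhancer-rich neighbourhood, in band 8q24 of its long arm. HL60 is known for amplified MYC.

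The targeted gene did not have less RNA in the libraries labelled HK3-null. HK3, on another chromosome, had 90, 65 and 105 normalized counts in the Cas9 DMSO libraries and 344, 302 and 346 in the KO-2G DMSO libraries. With ATRA it had 1305, 1298 and 1850 in Cas9 and 1384, 1285 and 1975 in KO-2G. The RNA level thus gives no check of the genotype labels. As checks of the knockout the study's methods also describe sequencing of the cut site and mass spectrometry of protein from pooled clones. Neither was analysed here, and directions below refer to libraries as labelled. Myeloid markers were high throughout, with MPO between 440811 and 661371 normalized counts. T cell, erythroid and epithelial markers did not exceed 20 normalized counts, and of the B cell markers CD79A held 45 to 102. More genes held counts in the RNA library Cas9 DMSO replicate 1 (16750) than in any other (15031 to 15801).

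The deposited files hold only regions that differed between KO-2G and Cas9 with ATRA. In these files the ratio of the group means in ATRA was at least 1.65 for each of the 8286 regions and at least 1.74 on chromosome 8. That contrast is therefore described without a test, and the DMSO libraries, which share none of its samples, carry the tests. They compare the same 2 lines, so DMSO calls are not independent of the selection. Of all 6214 tested regions, 42.7% were called higher and 43.9% lower in DMSO, and calls are read against these shares. The regions bear running numbers that rise with position on chromosome 8, from 89673 to 93760. If these numbers run over all merged peaks, 28.0% to 28.2% of the peaks of chromosome 8 were kept, against 7.38% elsewhere.

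Signal over the chromosome 8 regions was higher in each of the 4 KO-2G libraries than in any Cas9 library. The median log2(signal + 1) of the 1154 regions was 4.58 and 4.78 in the Cas9 DMSO libraries and 5.92 and 5.82 in the KO-2G DMSO libraries. With ATRA it was 4.68 and 4.18 in Cas9 and 5.85 and 5.92 in KO-2G. Regions of the chromosomes other than 5, 6, 8, 13 and 15, which each held regions shifted mostly to one side, had medians between 4.27 and 4.82 in the same 8 libraries. Chromosome 8 supplied 14% to 15.2% of the summed signal of a Cas9 library and 28.3% to 31.1% of that of a KO-2G library. The lowest medians of both sets belonged to Cas9 ATRA replicate 2.

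**Figure D1:**
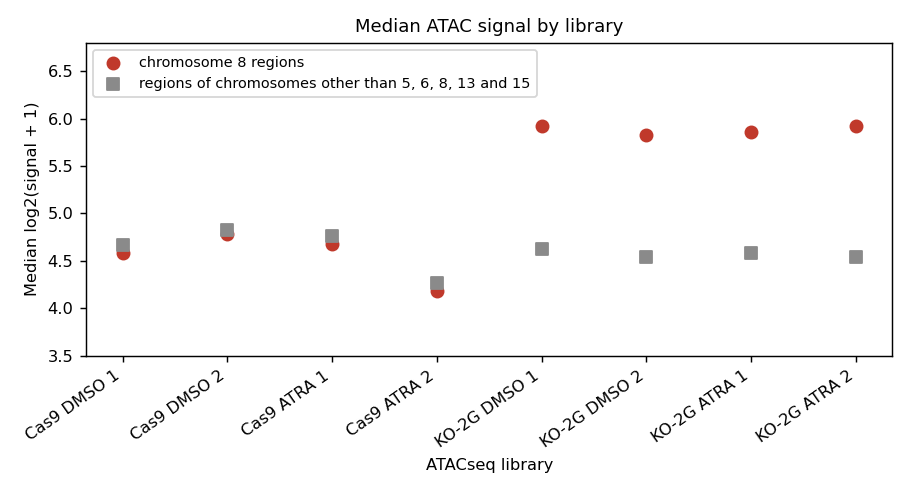
Median log2(signal + 1) of the chromosome 8 regions (red circles) and of the regions on chromosomes other than 5, 6, 8, 13 and 15 (grey squares) in each of the 8 ATACseq libraries. The grey squares lie between 4.27 and 4.82, and the red circles of the 4 KO-2G libraries stand above them, at 5.82 to 5.92, while those of the Cas9 libraries lie at 4.18 to 4.78.

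Nearly all of the deposited chromosome 8 regions were higher in KO-2G in DMSO. The difference between group means was above 0 for 1124 of 1154 regions, with a median of 1.21 on the log2(signal + 1) scale and a middle range of 0.87 to 1.81 between the 25th and 75th percentiles. Both KO-2G libraries lay above both Cas9 libraries at 1086 regions, which is 94.1% of them against 50.1% of all 8286 regions. After removal of the regions whose mean signal was at or below the 25th percentile of all regions, 908 members were tested with limma, and a call required an adjusted p under 0.05 and a 1.5-fold difference. Of these, 768 were called higher and 13 lower, whereas 42.7% of all 6214 tested regions were called higher and 43.9% lower. The median difference of the 908 tested regions was 1.13, against 0.33 over all tested regions. All tested regions include those lower in KO-2G in ATRA. Among regions higher in KO-2G in ATRA, the DMSO median was 1.22 on chromosome 8 and 1.23 on chromosome 6. On chromosomes other than 5, 6, 8, 13 and 15 it was 1.34. The share above 0 in DMSO was 99.1%, 98.5% and 96.4%, in that order. In ATRA the median over the 1154 regions was 1.44, and 1132 of them were higher in KO-2G. With each library centred on the median of its regions on chromosomes other than 5, 6, 8, 13 and 15, the DMSO median was 1.30.

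The difference was described along the chromosome for the deposited regions alone. On 8p the median difference in DMSO was 1.22 over 358 regions and on 8q it was 1.21 over 796 regions. In windows of 10 Mb the median lay between 0.98, at 130 to 140 Mb, and 1.5, at 50 to 60 Mb. The share of numbered peaks that was listed ranged from 20.4% at 110 to 120 Mb to 42% at 140 to 150 Mb. Of the 30 regions below 0 in DMSO, 15 lay at 120 to 130 Mb.

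**Figure D2:**
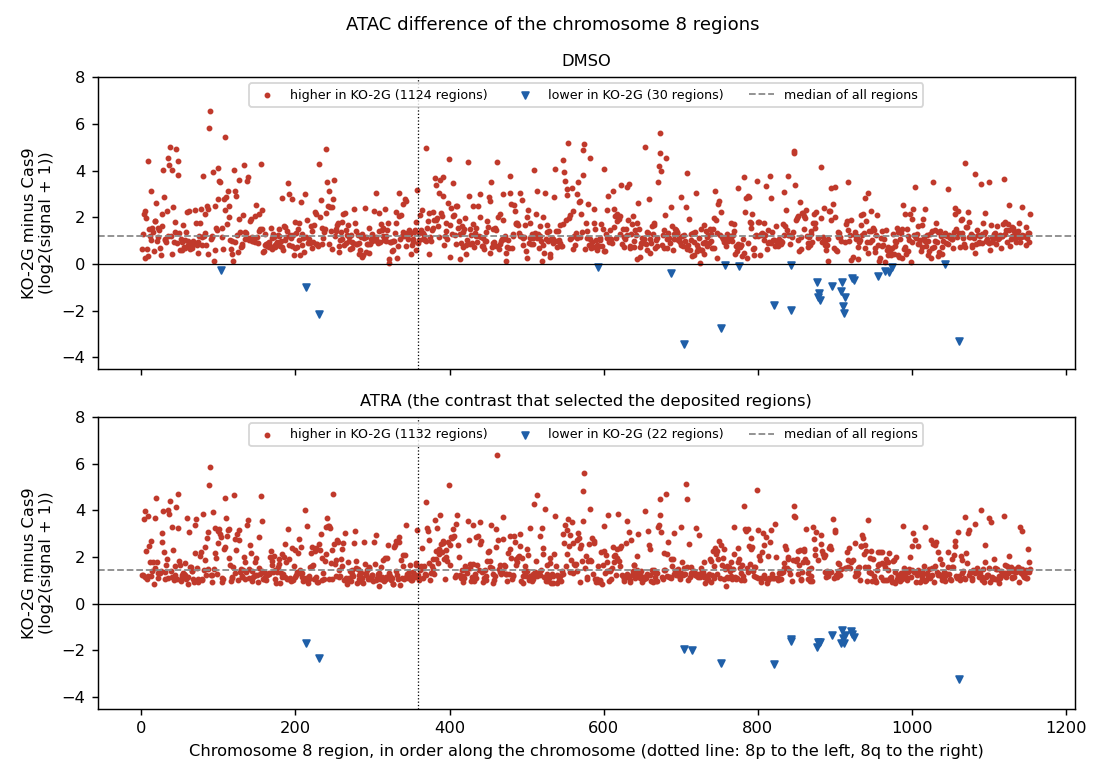
Difference in log2(signal + 1) between KO-2G and Cas9 for the 1154 chromosome 8 regions, in their order along the chromosome, in DMSO (top) and ATRA (bottom). Red points are higher and blue triangles lower in KO-2G, with dashed lines at the medians of 1.21 and 1.44; the blue triangles gather in the last part of 8q.

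Among the regions kept, weak and strong ones differed in how far they rose. Of the 1132 regions higher in ATRA, the third with the highest mean signal had a median DMSO difference of 1.06 and a middle range of 0.87 to 1.24. The third with the lowest mean signal had a median of 1.91, with a middle range of 1.22 to 2.84. Regions within 1000 bp of a GENCODE transcript start had a median of 1.15 (427 regions), those within genes 1.34 (487 regions) and those between genes 1.25 (218 regions). Those near a start also had the strongest signal, with a median of 81.3 against 29.1 within genes and 31.9 between genes. Members were more often near a start, 37.3% of the regions on chromosome 8 against 22.9% of those elsewhere, and their median signal was 40.7 against 28.0.

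Large rises in DMSO were ranked among called regions with both KO-2G libraries above both Cas9 libraries, with at most 1 region per listed gene. Of the 8 largest so ranked, 7 were at promoters, all with signals under 4 in both Cas9 DMSO libraries. Signals in the Cas9 libraries did not exceed 6.46 at these 8 regions. They passed the limit on mean signal only through the KO-2G libraries, so their p-values are no independent support for the rise. The promoter of TPD52, a membrane trafficking protein (chr8:80171019-80171855), had signals of 3.5 and 3.33 in Cas9 DMSO and 160 and 149 in KO-2G DMSO, a difference of 5.13 ± 0.37 (SE, adjusted p = 4.65e-14). TPD52 RNA went with it, at 7, 0 and 1 normalized counts in Cas9 DMSO and 2388, 2446 and 2038 in KO-2G DMSO. LAPTM4B, which encodes a lysosomal membrane protein, had no promoter signal in either Cas9 DMSO library and 58.1 and 38.7 in KO-2G (chr8:97774963-97775341, difference 5.60 ± 0.55, adjusted p = 7.16e-11). Its RNA stood at 43, 1 and 2 against 7928, 8187 and 7522 normalized counts. The count of 43 belonged to Cas9 DMSO replicate 1. SLC7A2, a transporter of cationic amino acids, had promoter signals of 1.00 and 2.54 against 104 and 127 (chr8:17496735-17497492, difference 5.45 ± 0.42, adjusted p = 3.98e-13). Its RNA amounted to 0, 0 and 1 against 2240, 2305 and 2222 normalized counts, a ratio of summed counts of 6767. The exact 95% interval of this ratio, 1214 to 267321, treats normalized counts as read counts and covers counting error only.

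At XKR5 and SPIDR the RNA was scarce or its difference smaller than that of the signal. At XKR5 (chr8:6835192-6835893) signal went from 2 and 2.73 to 120 and 92.6, while RNA in KO-2G DMSO was scarce, at 8, 5 and 4 normalized counts. A region inside SPIDR, a DNA repair scaffold (chr8:47627627-47628104), went from 0 and 2.25 to 59.6 and 52.3, a difference of 4.98 ± 0.47, whereas SPIDR RNA rose by only 0.89 ± 0.10. The remaining regions of the 8 ranked rises belong to gene families with near-identical copies on 8p. They were at FAM86B2 (difference 6.54 ± 0.55), FAM86B1 with FAM85A (5.81 ± 0.35) and FAM66B with ZNF705G (4.92 ± 0.53). Only uniquely mapped reads entered the signal, so these values are uncertain for any single copy. FAM86B1 RNA was 17, 16 and 11 normalized counts in KO-2G DMSO and 0 in the Cas9 DMSO libraries.

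Exceptions to the rise were few, and most lay together. Of the 22 regions lower in KO-2G in ATRA, 20 were also lower in DMSO. Of those 20, 16 were tested and 13 called lower in DMSO, and these 13 were all of the lower calls on the chromosome. A further 10 regions were below 0 in DMSO alone, none of them called, the lowest at -0.53. Of the 22 regions, 15 fell between 125.2 and 129.7 Mb, a stretch of 8q24 around MYC that makes up 3.10% of the chromosome and was marked out after its values were seen. Of the 22, 15 were within genes, 4 between genes and 3 at promoters.

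Within this stretch, falls and rises stood side by side. It held 83 regions, 68 of them higher in KO-2G in ATRA, with a median DMSO difference of 1.39, and 15 lower, with a median of -1.15. In DMSO 45 of its 67 tested regions were called higher and 11 lower. The shares were 42.7% and 43.9% over all tested regions and 84.6% and 1.43% over those of chromosome 8. A region inside NSMCE2, a SUMO ligase gene (chr8:125280827-125281171), had signals of 162 and 178 in Cas9 DMSO and 42.5 and 44 in KO-2G DMSO, a difference of -1.95 ± 0.30 (SE, adjusted p = 8.47e-07). Further along and listed for the same gene, chr8:125372980-125373218 had no signal in either Cas9 DMSO library and 26.6 and 29.3 in KO-2G (4.85 ± 0.53, adjusted p = 9.20e-10). With at most 2.67 in any Cas9 library, this region too passed the limit on mean signal only through the KO-2G libraries. The 4 regions listed for TRIB1, a pseudokinase gene of myeloid cells, were each called higher. The strongest of them, chr8:125429217-125430898, went from 1082 and 1008 to 2384 and 2222.

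Further falls were called at the promoter of LINC00861 (chr8:125950968-125951567), from 62.2 and 53 to 18.5 and 23.2 (-1.43), at chr8:126275280-126275687 (-1.23), at LOC101927657 and beyond PVT1. At LOC101927657, a long noncoding RNA gene, chr8:126321829-126322556 had 506 and 494 in Cas9 DMSO and 164 and 176 in KO-2G DMSO, a difference of -1.55 ± 0.27 (adjusted p = 6.32e-06). With ATRA it had 704 and 537 against 190 and 203. Beyond PVT1 came 5 neighbouring regions with no listed gene, from chr8:128988675-128989052 to chr8:129094374-129094677, each called lower in DMSO. At chr8:129052986-129053441 signals were 173 and 162 in Cas9 and 40.6 and 35.1 in KO-2G, a difference of -2.12 ± 0.29 (adjusted p = 9.62e-08). At chr8:129034865-129035391 they were 454 and 458 against 141 and 119 (-1.81 ± 0.28, adjusted p = 5.38e-07). In all 5 both KO-2G libraries lay below both Cas9 libraries. The same held at 44.6% of all 8286 regions and at 21 of the 1154 regions on chromosome 8. The region nearest to MYC among the falls, chr8:127685213-127685653, ends 49781 bp before the start of the gene and had 110 and 129 against 64.7 and 57.0 (-0.96 ± 0.30, adjusted p = 0.0038).

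**Figure D3:**
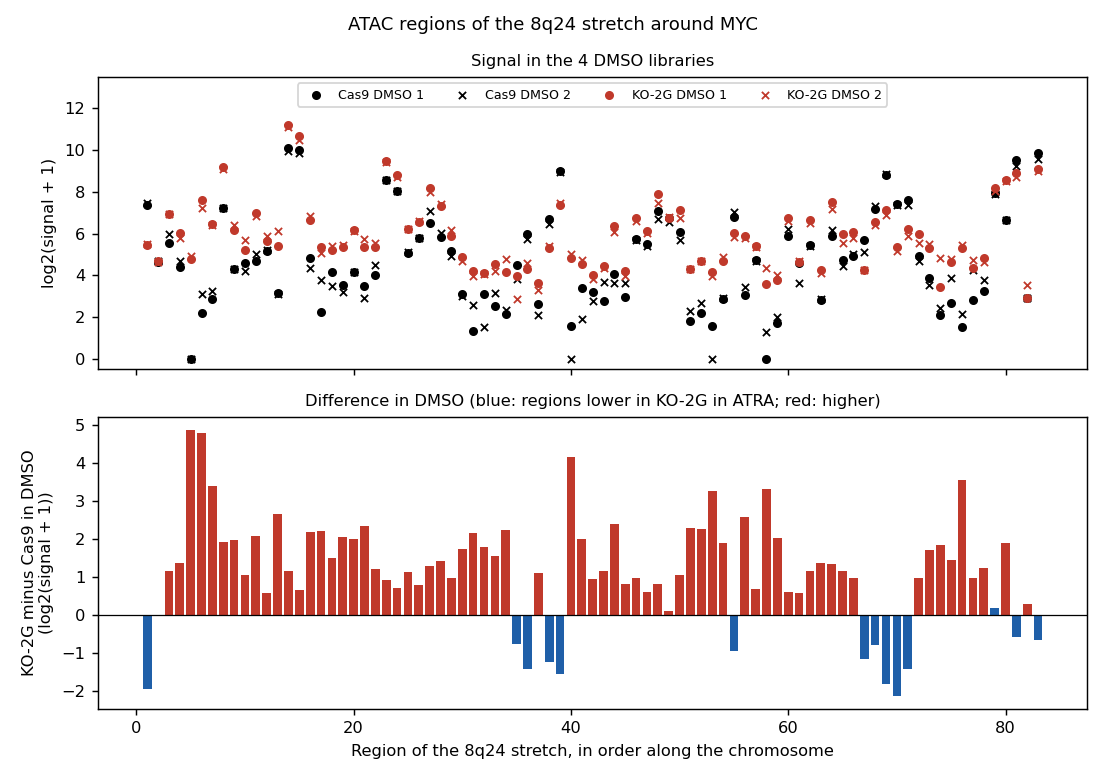
The 83 regions of the 8q24 stretch in their order along the chromosome: log2(signal + 1) in the 4 DMSO libraries (top, Cas9 black, KO-2G red) and the DMSO difference between KO-2G and Cas9 (bottom). Blue bars mark the 15 regions lower in KO-2G in ATRA, which sit between runs of red bars and reach -2.12.

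MYC RNA did not follow the chromosome. MYC was listed at no region, and it had 51419, 42067 and 50378 normalized counts in Cas9 DMSO and 54095, 45237 and 51576 in KO-2G DMSO. The groups overlapped, with a difference of 0.07 ± 0.14 on the log2(normalized count + 1) scale (limma, adjusted p = 0.682), whose sign turns with libraries centred on the genes of other chromosomes. With ATRA MYC stood at 12073, 9654 and 12796 in Cas9 and at 7575, 5403 and 7202 in KO-2G, a difference of -0.78 ± 0.14 (adjusted p = 0.000287). PVT1, the long noncoding RNA gene beside it, had 246, 242 and 189 against 480, 473 and 385 in DMSO (0.98 ± 0.17, adjusted p = 0.000306). Its 4 listed regions were above 0 in DMSO, 2 of them were tested and neither was called. By position, chr8:127831561-127831974 also lies inside PVT1, with no gene listed, and was called higher (2.57 ± 0.52, adjusted p = 4.34e-05). With at most 10 in any Cas9 library, it passed the limit on mean signal only through KO-2G. Also inside PVT1 with no gene listed, chr8:127875432-127875908 was not called (0.68).

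LOC101927657, whose region kept part of its signal, had almost no RNA left in KO-2G. It had 739, 767 and 543 normalized counts in Cas9 DMSO and 0 in the 3 KO-2G DMSO libraries, so it was at least 228-fold lower against a floor of 3 counts per library. With ATRA it had 742, 583 and 436 in Cas9 and 0, 0 and 1 in KO-2G. CCDC26, a long noncoding RNA gene known from AML, had more RNA in KO-2G and regions that went both ways, most of them up. Of its 10 regions 8 were above 0 in DMSO, with a median of 1.10, and 4 were called higher and 1 lower. That one, chr8:129591366-129592753, had 934 and 768 in Cas9 and 548 and 516 in KO-2G. CCDC26 RNA had 32, 17 and 14 normalized counts in Cas9 DMSO and 273, 231 and 215 in KO-2G DMSO (3.53 ± 0.29, adjusted p = 4.86e-07). TRIB1 RNA was 2.82-fold higher in DMSO (1.52 ± 0.20, adjusted p = 3.44e-05). Of the 19 genes on the fixed list for the MYC neighbourhood, 6 were listed at a region and tested. Of these, 5 were called higher and none lower in DMSO, and NSMCE2 differed by 0.40 ± 0.09, under the 1.5-fold limit. This share, 83.3%, is near the 83.8% called higher among all 334 tested genes listed at chromosome 8 regions. CASC8, CASC19, CASC21 and CCAT1, noncoding genes between FAM84B and MYC, had regions above 0 in DMSO but no more than 2 normalized counts in any library.

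Outside the stretch the clearest falls were at OXR1 and beside LOC105375677. OXR1 encodes a protein of oxidation resistance. The region at one of its transcript starts, chr8:106725831-106726273, had 82.9 and 112 in Cas9 DMSO and 12.2 and 15.4 in KO-2G DMSO, a difference of -2.73 ± 0.35 (adjusted p = 2.48e-08). OXR1 RNA nevertheless was 539, 624 and 491 normalized counts in Cas9 DMSO and 1896, 2038 and 1724 in KO-2G DMSO (1.78 ± 0.09, adjusted p = 6.83e-09). Of its 8 regions, 7 were above 0, and of 6 tested 5 were called higher and this one lower. At chr8:101166282-101166699, beside LOC105375677, signal went from 54.8 and 78.2 to 3.08 and 8.15 (-3.44 ± 0.42, adjusted p = 9.92e-09). Weak regions inside SCARA5, ADRA1A and FBXO32 and at chr8:142968932-142969453 were also lower in both treatments, at mean signals of 8.81 to 15.3, below the limit for testing.

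The RNA of the genes listed at the regions rose along with the signal. The regions listed 708 genes, 555 of them with a row in the RNA table, and 334 passed the filter on the mean. In DMSO 280 of these were called higher and 5 lower in KO-2G, while 17.6% of all 12444 tested genes were called higher and 14.9% lower. In ATRA the counts were 277 and 5, against 19.2% and 18% of all genes. The median difference of the 334 genes was 1.09 in DMSO and 1.06 in ATRA, and over all tested genes it was 0.0046 and 0.0063. The tested genes of chromosomes other than 5, 6, 8, 13 and 15 had a median difference of 0.01 in DMSO, although the medians of the libraries over those genes differed by 0.10. With each library centred on that median, the median of the 334 genes was 0.98. Fewer cells of a kind and less RNA per cell cannot be told apart in such bulk libraries. The median log2(normalized count + 1) of the 334 genes lay between 8.77 and 8.88 in the 6 Cas9 libraries and between 9.92 and 9.97 in the 6 KO-2G libraries. The 69 tested genes of chromosome 8 that no region listed had a median of 0.84 in DMSO, with 45 called higher and 4 lower. In windows of 10 Mb the median RNA difference of all tested genes of the chromosome lay between 0.94 and 1.36 in DMSO.

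**Figure D4:**
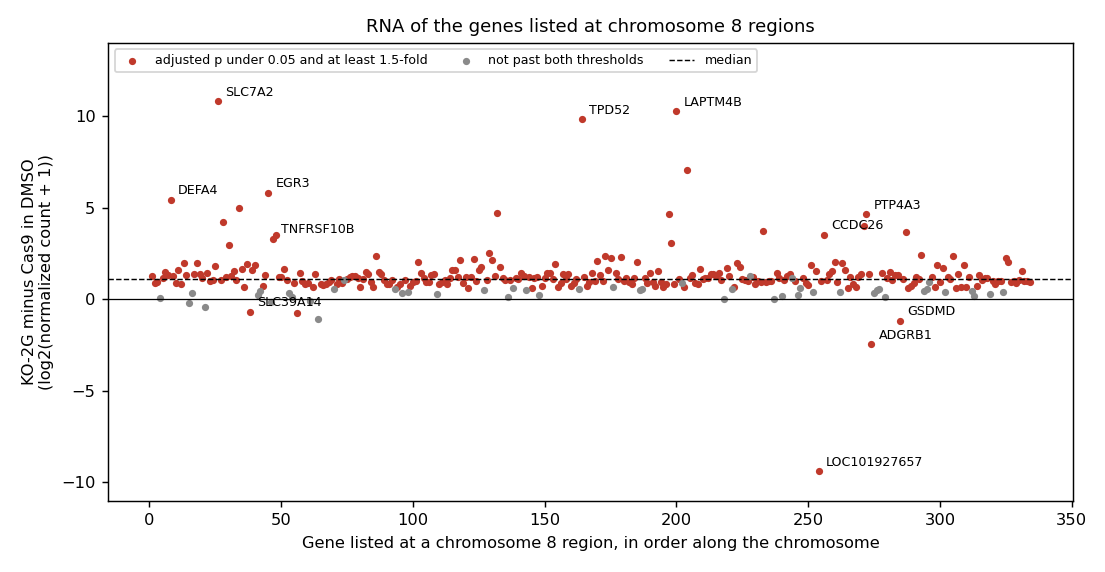
RNA difference between KO-2G and Cas9 in DMSO, on the log2(normalized count + 1) scale, for the 334 tested genes listed at chromosome 8 regions, in their order along the chromosome. Red genes passed the test and the 1.5-fold limit, and the dashed line marks the median of 1.09; most genes form a band just above 1 along the whole chromosome.

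The gene lists below are to be read against all 334 listed genes, of which 83.8% were called higher and 5 genes lower in DMSO, with a median of 1.09; no list was tested against the others. Of the TRAIL receptor genes on 8p, TNFRSF10B and TNFRSF10C differed more than most listed genes. TNFRSF10B, a receptor for the death ligand TRAIL, had 280, 247 and 161 normalized counts in Cas9 DMSO and 2231, 2254 and 2136 in KO-2G DMSO, 9.62-fold higher (3.30 ± 0.16, adjusted p = 3.65e-09). All of its 6 regions were called higher, with a median difference of 1.08. The other TRAIL receptor, TNFRSF10A, rose 2.34-fold and the decoy receptor TNFRSF10D 2.29-fold. TNFRSF10C, also a decoy, had 4, 1 and 2 against 29, 43 and 32. Of the 11 tested genes on the cell death list, 8 were called higher (median 1.23, against 83.8% and 1.09 over all listed genes), among them PPP3CC (3.07-fold) and RRM2B (2.43-fold), and 1 lower, GSDMD.

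Among 11 tested genes of myeloid defense 8 were called higher in DMSO and 2 lower, GSDMD and ADAM28, with a median of 1.23, against 83.8% higher and 1.09 over all listed genes. DEFA4, a neutrophil granule defensin, had 12, 6 and 12 normalized counts in Cas9 DMSO and 438, 459 and 480 in KO-2G DMSO (5.44 ± 0.20, adjusted p = 3.98e-10). DEFA3, listed at no region, had no counts in the Cas9 DMSO libraries and 1464, 1421 and 1430 in KO-2G. It is near-identical to DEFA1, so its counts are uncertain. LYN, a Src-family kinase, rose 3.03-fold (1.62 ± 0.16, adjusted p = 2.64e-06). Of the 12 tested kinases and adaptors, 11 were called higher (median 1.17, against the same 83.8% and 1.09), DOK2 by 2.89-fold and PTK2B by 2.58-fold. CEBPD, a transcription factor of granulocytes, rose 2.35-fold. It counts among 8 of 11 tested transcription factors called higher, with none called lower and a median of 1.23, again beside 83.8% and 1.09. EGR3 had no counts in Cas9 DMSO and 105, 59 and 27 in KO-2G, at least 21.2-fold higher against the same floor. KLF10 differed by -0.01 ± 0.17, with 272, 257 and 238 against 343, 222 and 215. TOX had 15, 0 and 0 normalized counts against 67, 65 and 59, the 15 again in Cas9 DMSO replicate 1. PLAG1 rose 3.42-fold.

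Of 20 tested genes of genome maintenance, 16 were called higher and none lower in DMSO, with a median of 1.00, against 83.8% higher and 1.09 over all listed genes. WRN, a helicase of DNA repair, rose 2.57-fold, ATAD2 2.37-fold and NBN, of the break-sensing MRN complex, 2.13-fold (1.09 ± 0.06, adjusted p = 1.22e-08). PRKDC, the catalytic kinase of end joining, rose 1.54-fold (0.62 ± 0.10). Without Cas9 DMSO replicate 3 its difference was 0.58 and without KO-2G DMSO replicate 3 it was 0.56, both under the 1.5-fold limit, as was its value of 0.52 with libraries centred on their medians. PINX1, POLB, TONSL and NSMCE2 differed by 0.33, 0.28, 0.26 and 0.40 and were not called. RAD21, a cohesin subunit listed at no region, had 4973, 5000 and 4579 against 10519, 10477 and 9034 (1.04 ± 0.07). YWHAZ, an adaptor protein, rose 2.24-fold. Of 16 tested genes of metabolism and transport 14 were called higher (median 1.22, against 83.8% and 1.09), including lipoprotein lipase (LPL, 7.90-fold) and SQLE, an enzyme of sterol synthesis (3.63-fold), and 1 lower, SLC39A14. PTK2 was too scarce to be tested, with 47 normalized counts in Cas9 DMSO replicate 1 and at most 7 elsewhere.

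The RNA of 3 genes was called lower in DMSO although their called regions were higher. ADGRB1, an adhesion receptor, had 1162, 1004 and 1095 normalized counts in Cas9 DMSO and 253, 190 and 161 in KO-2G DMSO (-2.45 ± 0.23, adjusted p = 1.31e-06), with 2 of its 3 regions called higher. GSDMD, the pore-forming protein of pyroptosis, had 1248, 1119 and 1242 against 541, 527 and 542 (-1.16 ± 0.07, adjusted p = 1.60e-08), with all 4 regions called higher. SLC39A14, a zinc and iron transporter, had 1519, 1443 and 1477 against 953, 950 and 883 (-0.67 ± 0.10, adjusted p = 8.72e-05), with 1 of 2 regions called higher. In each of the 3 the groups did not overlap, which adds no support, since the genes were picked by these calls. No share of such genes over all tested genes is given. The other genes called lower in DMSO were LOC101927657 and ADAM28, a metalloprotease (14, 15 and 13 against 6, 8 and 10), the latter no longer called without KO-2G DMSO replicate 1 (-0.59). In ATRA the 5 lower calls were LOC101927657, ADGRB1, SLC39A14, DPYSL2 and RP1L1. RP1L1 was no longer called without Cas9 ATRA replicate 2 (-0.77) or KO-2G ATRA replicate 3 (-0.83).

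The effect of ATRA was compared within each genotype. The files hold only regions with a genotype difference, so counts of ATRA and genotype calls are not compared, and these contrasts use the ATRA libraries in which all regions differ by genotype. In Cas9, 14 of the 908 tested regions were called higher with ATRA and 90 lower, against 2.54% and 15.6% of all tested regions. In KO-2G 20 were called higher and 39 lower, against 5.04% and 11.8%. The split between rises and falls rests on scaling. With ATRA the library medians over regions of the other chromosomes fell by 0.34 (log2) in Cas9 and fell by 0.14 in KO-2G. With libraries centred on those medians, the calls were 48 higher and 51 lower in Cas9 and 64 and 35 in KO-2G. The median ATRA effect on chromosome 8, -0.22 in Cas9 and -0.06 in KO-2G, became 0.12 and 0.08. Cas9 ATRA replicate 2, the library with the least signal, bears on this too: without it 11 regions were called higher and 34 lower in Cas9, and without Cas9 ATRA replicate 1 the counts were 3 and 164. Without Cas9 DMSO replicate 1 they were 6 and 62, and without Cas9 DMSO replicate 2 they were 8 and 35. In KO-2G they were 11 and 12 without KO-2G DMSO replicate 1 and 10 and 17 without KO-2G DMSO replicate 2. Regions called in both genotypes numbered 36, of which 30 fell and 6 rose in both, and none went opposite ways. Falls outnumbered rises over all tested regions too. No share over all tested regions is given for this overlap, so it is not read as particular to chromosome 8.

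**Figure D5:**
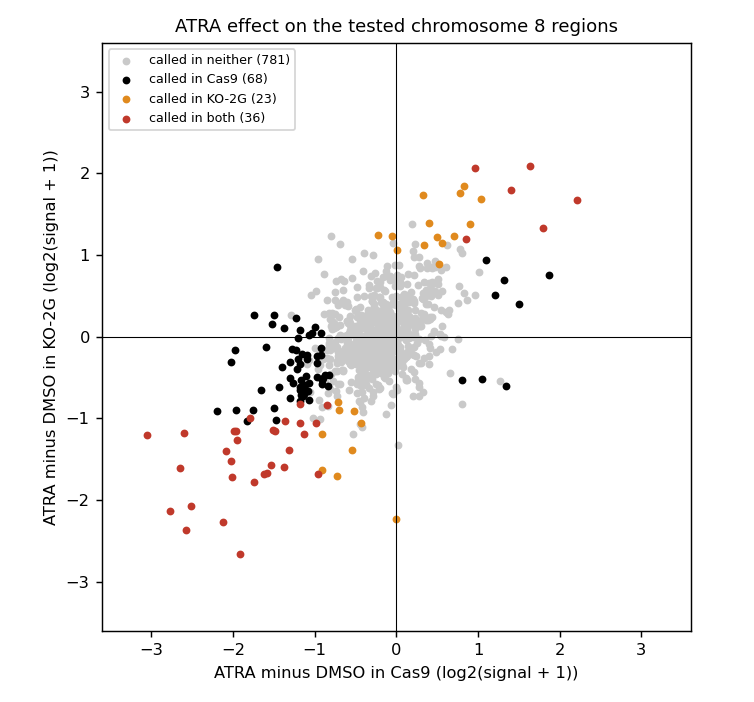
Effect of ATRA, as the difference in log2(signal + 1) from DMSO, in Cas9 (horizontal) and KO-2G (vertical) for the 908 tested chromosome 8 regions. Red points (36) were called in both genotypes and lie at the lower left or upper right, and 781 regions were called in neither.

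The strongest ATRA falls were partly in the same regions of both lines. The CCDC26 region chr8:129591366-129592753 went from 934 and 768 to 255 and 197 in Cas9 and from 548 and 516 to 65.1 and 106 in KO-2G, falls of -1.91 ± 0.29 and -2.66 ± 0.29 (adjusted p = 9.65e-06 and 1.50e-08). A region inside PLEC, which encodes the cytoskeletal linker plectin (chr8:143936367-143936872), went from 115 and 144 to 30.2 and 10.6 in Cas9 and from 225 and 251 to 56.3 and 50.8 in KO-2G. PLEC RNA fell by 0.99 in Cas9 and by 0.75 in KO-2G on the log2 scale. At NEIL2, a DNA glycosylase gene (chr8:11783051-11784005), KO-2G signal went from 144 and 129 to 30.7 and 24.6, and RNA from 362, 420 and 418 to 71, 76 and 67 normalized counts. Cas9 signal there was also called lower, from 22.9 and 28.5 to 6.21 and 4.10. A region listed for TOX, chr8:58801341-58801878, went from 73.5 and 82.1 to 14.6 and 10.1 in Cas9 and from 163 and 145 to 29 and 29.1 in KO-2G. Cas9 also had large falls inside C8orf37 (-3.06 ± 0.43) and LRRC69 (-2.60 ± 0.38) and beside LOC105375771 (-2.65 ± 0.39). In KO-2G the region chr8:20062002-20062497, with no listed gene, went from 75.1 and 54.1 to 11.1 and 14.9, a call lost without KO-2G DMSO replicate 1 (-1.99).

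The largest rises with ATRA included regions near MYC and inside CSGALNACT1, DOCK5 and WISP1. A region at the start of CASC21 and CASC8, chr8:127322268-127322677, went from 6.31 and 6.55 to 44.2 and 25.3 in Cas9 and from 24.9 and 28.6 to 102 and 75.6 in KO-2G (2.21 ± 0.36 and 1.68 ± 0.36, adjusted p = 2.35e-05 and 0.000763). Inside CSGALNACT1, which starts chondroitin sulfate chains (chr8:19718617-19719098), signal went from 1.27 and 3.73 to 10.8 and 9.93 in Cas9 and from 42.9 and 35.1 to 103 and 96.0 in KO-2G. CSGALNACT1 RNA rose 7-fold and 6.14-fold with ATRA. A region inside DOCK5, an activator of Rac (chr8:25345290-25345835), rose in KO-2G from 53.6 and 42.6 to 200.1 and 151, and its RNA 2.51-fold. The DOCK5 region was not called in Cas9 (0.83). At TNFRSF10C (chr8:23102619-23102960) signal went from 13.8 and 17.0 to 52.4 and 58.8 in KO-2G and RNA from 29, 43 and 32 to 131, 120 and 130. Inside WISP1, a secreted signalling protein gene, KO-2G went from 25 and 18.5 to 76.1 and 114, with no more than 2 normalized counts of RNA in any library. Cas9 rises were also called, from 10.6 and 7.18 to 32.8 and 18.7 at TNFRSF10C and from 25.1 and 22 to 56 and 39.2 at WISP1. In Cas9 the call at CSGALNACT1 was lost without Cas9 DMSO replicate 1 (1.26). The Cas9 rise listed for NSMCE2 (chr8:125372980-125373218) was lost without Cas9 ATRA replicate 2 (1.86), and that at chr8:52788486-52789011, with no listed gene, without Cas9 ATRA replicate 1 (1.66), Cas9 ATRA replicate 2 (1.60) or Cas9 DMSO replicate 1 (0.78). At these regions and the CSGALNACT1 region no Cas9 signal exceeded 11.8, so they passed the limit on mean signal only through KO-2G. Their Cas9 calls are thus no independent support for a rise. The NSMCE2 region had at most 2.67 in Cas9, so its value rests on the added 1.

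In the RNA of the listed genes, ATRA raised 31 and lowered 39 of 334 in Cas9, against 11.5% and 8.23% of all genes, and raised 43 and lowered 51 in KO-2G, against 14.2% and 13.6%. SLA, an adaptor that dampens receptor signalling, had 620, 724 and 720 normalized counts in Cas9 DMSO and 4723, 5469 and 5462 with ATRA, and in KO-2G it went from 740, 907 and 1104 to 17010, 18303 and 16958. DEFA4 rose from 12, 6 and 12 to 87, 98 and 108 in Cas9. PTP4A3, a phosphatase, rose from 17, 17 and 14 to 89, 103 and 78. CA2, a carbonic anhydrase, fell from 582, 574 and 475 to 95, 54 and 60. In KO-2G DEPTOR, an inhibitor of mTOR, fell from 515, 540 and 501 to 24, 22 and 20, and ADGRB1 from 253, 190 and 161 to 24, 22 and 13. RNF122, a ubiquitin ligase, rose in KO-2G from 130, 153 and 150 to 958, 1186 and 917. The ATRA effect differed between the genotypes for 38 of the 334 genes, 19 higher and 19 lower in KO-2G (limma interaction, adjusted p under 0.05), against 9.91% of all tested genes, 4.75% higher and 5.16% lower in KO-2G. With the replicate number as a block it differed for 100 genes.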

How the data were processed

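The authors mapped ATACseq reads to hg38 with bwa mem, kept unique non-duplicate pairs, reduced libraries to an equal number of tags, called peaks with MACS2 and merged them. The deposited value is mean signal per merged region over 32 bp bins; ATACseq depth is unknown. The RNAseq values deposited by the authors are log2 of normalized counts (zeros replaced by 0.001), taken back to counts, with 29053838 to 31548189 per library; since these are normalized, totals are not depths. The study's methods name RPKM, but taken back from the log these are whole numbers. The RNA aligner is not given in the sources used here.

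Regions were compared with limma 3.58.1 (trend, R 4.3.3) on log2(signal + 1) over 8 ATACseq libraries. Tested regions had a mean signal above 17.1. Genes were compared on log2(normalized count + 1) over 12 RNAseq libraries, with a mean log2 value above 3. P-values were Benjamini-Hochberg adjusted over all tested features, with a call at adjusted p under 0.05 and 1.5-fold, except for interactions, which had no fold limit. RNA rows without a gene name (330, at most 0.0093% of counts) were left out. Coordinates are given 1-based on hg38. Region classes came from GENCODE 44, gene positions from RefSeq, and gene names as the files list them.

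Named regions were the 6 largest falls present in both treatments, the 8 largest called rises in DMSO and the 4 largest called rises and falls with ATRA in each genotype. Named genes were a fixed set, the 3 most changed per list, those opposite to their regions and the 4 largest ATRA effects per genotype. Genes of the 8q24 stretch, further list members and genes of exceptional regions were named after their values were seen. Members and lists were chosen with earlier results of these data known. Scripts were tested on simulated data in which few features were changed. There the ATACseq fit called 9% of 2-fold and 80% of 4-fold changes, and the RNAseq fit 74% and 93%. A region that was not called is therefore not shown to be unchanged.

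Alternatives were a pseudocount of 5, no filter or another, quantile normalization, centring on chromosomes other than 5, 6, 8, 13 and 15, a replicate block, leaving out each library, a 2-fold limit and unadjusted p.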

Additional observations from a re-analysis of the deposited data

Results flagged for a closer look

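For these genes the effect of ATRA on RNA differed between the genotypes in the interaction test across all genes (limma on log2(normalized count + 1), adjusted p under 0.05); each value is the effect in KO-2G minus that in Cas9. The effect was higher in KO-2G for TNFRSF10D (1.56), SLA (1.34), ADAM28 (1.22), GSDMD (0.61), NSMCE2 (0.57), DOK2 (0.54), CEBPD (0.53) and FAM49B (0.48). It was lower in KO-2G for ADGRB1 (-2.82), DEPTOR (-2.30), SLC7A2 (-2.15), HK3 (-1.89), CCDC26 (-1.89), DEFA4 (-1.44), PTP4A3 (-1.18), NEIL2 (-1.14), MYC (-0.85) and SLC39A14 (-0.85). With a library left out the interactions of CEBPD (0.45 to 0.63) and ADAM28 (1.05 to 1.37) lost the call in 9 and 11 of the 12 fits, and that of DOK2 (0.44 to 0.63) in 11. TNFRSF10D differed in direction, from 157, 89 and 105 normalized counts to 79, 57 and 64 in Cas9 and from 276, 266 and 263 to 481, 473 and 441 in KO-2G. SLC7A2 had at most 1 normalized count in any Cas9 library, so its value rests on the added count of 1.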

How the results depend on the processing

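In the comparison of KO-2G with Cas9 in DMSO, the counts of calls stayed within 1.5 times of the reported ones under all alternatives run, with 600 to 804 of the chromosome 8 regions and 280 to 287 listed genes called when a library was left out. For ATRA in Cas9, 104 regions were called, 43 to 167 with a library left out and 185 at an unadjusted p under 0.05. For ATRA in KO-2G, 59 were called, 23 to 79 with a library left out, 92 with a pseudocount of 5, 99 when centred on the other chromosomes and 132 at an unadjusted p. The median ATRA effect turned positive with quantile normalization (0.092 in Cas9, 0.014 in KO-2G) and with centring (0.12 and 0.083). In KO-2G it was -0.17 to 0.076 with a library left out, the highest without KO-2G ATRA replicate 1. With a 2-fold limit 186 of 282 listed genes were called between genotypes in ATRA, 31 of 70 for ATRA in Cas9 and 39 of 94 in KO-2G. The median RNA difference in DMSO was 0.87 without a filter, 1.01 with quantile normalization and 0.98 centred. The interaction gave 38 genes, 24 to 35 with a library left out and 87 at an unadjusted p. Fewest were called without KO-2G DMSO replicate 1 (24), KO-2G DMSO replicate 2 (25) or Cas9 DMSO replicate 1 (25).

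With a replicate block the interaction gave 100 genes, and the regions called were 765 in DMSO, 94 for ATRA in Cas9 and 57 in KO-2G. Deviations of same-numbered RNA libraries correlated at 0.074 to 0.468, over 0.1 in 17 of 18 pairs and throughout in 5 of 6 pairs of groups, against -0.472 to 0.216 for other numbers. The exception was Cas9 ATRA with Cas9 DMSO, which the interaction includes, so the block was kept as an alternative there. With it the genes called were 287 and 285 between genotypes in DMSO and ATRA and 73 and 96 for ATRA in Cas9 and KO-2G. Same-numbered ATACseq libraries correlated at -0.209 to 0.0539. With the Cas9 DMSO numbers crossed, an alternative chosen after seeing the data, 113 regions were called for ATRA in Cas9.

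Small differences changed sign, as did the larger one of CLU, -1.09 in DMSO with all libraries and not called. In DMSO MYC was at -0.034 centred. With a library left out the DMSO difference was -0.021 to 0.15 for MYC, -0.22 to 0.11 for KLF10, -0.31 to 0.11 for DPYSL2 and -2.31 to 1.13 for CLU, and DPYSL2 and CLU were above 0 only without Cas9 DMSO replicate 1. In ATRA HK3 was at -0.0079 centred and -0.13 to 0.22 with a library left out, and CASC11 at -0.26 to 0.035. The causes were not tested. With 2 ATACseq libraries a group and unknown depth, regions of low signal were not tested.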
